A study of Homo sapiens with 2 samples.

Results

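Ca9-22 cells, an established line grown from a squamous carcinoma of the human gum, carried either an empty vector or a vector for PTHLH, the secreted parathyroid hormone-like hormone. The genes described are matrix metalloproteases, their inhibitors, the related ADAM and ADAMTS proteases, and the plasminogen system with its serpins. They were 39 genes listed by name, and 38 of them had a probe set named here, of 19775 genes in all. SERPINB2, the gene of plasminogen activator inhibitor type 2, was the 1 without, and its expression is not analysed here.

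Cells of both groups were stably transduced, selected with blasticidin and cultured at 37 °C in 5% CO2. Biotin-labelled cRNA of each was put on its own Affymetrix U133 array, so every comparison is of 1 array with 1 other array. The values were intensities in arbitrary units, 1 per probe set (a group of short oligonucleotides for 1 transcript), with medians of 19.5 (empty vector) and 19.4 (PTHLH). A description field of both samples names another cell line and another overexpressed gene, CX-1 and RAB3C. Titles and characteristics name Ca9-22 and PTHLH, and these were followed. No probe set for PTHLH is named here, so the transgene was not checked on the arrays.

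Epithelial identity was checked with genes of squamous cells. The measured 5 of 8 were above both array medians, with KRT5, a keratin of basal cells, at 7823 and 10228, and CDH1, the epithelial cadherin, at 1567 and 1399. KRT6A, KRT17 and TP63 had no probe set named here. Of 8 fibroblast markers, 4 were above both medians, and the collagen gene COL1A1 was at 2437 with the empty vector and 1652 with PTHLH. COL1A2, COL3A1, LUM and FAP were below the medians on both arrays. Of the endothelial markers (4 of 4 measured) 3 were above both medians, namely VWF (129 and 128), PECAM1 (40.4 and 39.9) and TEK (32.1 and 35.6). A level above the medians therefore does not by itself mark a cell type. Of the leukocyte markers (4 measured of 5 listed) 0 were above both medians. Neither list had a member at least 1.5-fold different.

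Matrix metalloproteases are zinc enzymes that cut collagens, laminins and other proteins outside the cell, and they are made as inactive precursors. Tissue inhibitors of metalloproteases, the TIMPs, block the active enzymes, and RECK does so at the cell surface. Urokinase and tissue plasminogen activator turn plasminogen into plasmin, which dissolves fibrin and activates several metalloprotease precursors. ADAM proteases release growth factors and receptors from the cell surface, and ADAMTS proteases cut proteoglycans and other matrix proteins. In squamous carcinoma these enzymes are known for clearing a path through the basement membrane.

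Promoters are shown for some of the members for which a sequence was given. The windows are those of RefSeq on GRCh38.p14 and run from 250 bases before to 50 bases after a gene's start. Sequences were given for 22 of the 39 members. Capitals mark the pattern TGANTCA, in which N is any letter, and TATAAA on the gene's own strand. The site that AP-1 transcription factors are known to bind is TGAGTCA or TGACTCA, so TGANTCA is a looser pattern. It reads the same on both strands. MMP10 and MMP7 are shown because they lie in the same gene cluster and were on opposite sides of the array medians. PLAUR is shown as the receptor of urokinase. TIMP3 and MMP15 had larger differences than PLAUR, and their given windows, which held no TGANTCA, are not shown. SERPINE2 has 2 starts, both shown, and was among the members with the largest differences.
MMP10, chr11:102780579-102780878, minus strand: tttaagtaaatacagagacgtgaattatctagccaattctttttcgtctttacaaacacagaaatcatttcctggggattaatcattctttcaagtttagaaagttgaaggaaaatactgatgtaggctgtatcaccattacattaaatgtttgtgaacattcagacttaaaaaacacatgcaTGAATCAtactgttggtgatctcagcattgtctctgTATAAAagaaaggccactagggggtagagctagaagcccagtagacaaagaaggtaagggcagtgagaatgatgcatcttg
MMP7, chr11:102530698-102530997, minus strand: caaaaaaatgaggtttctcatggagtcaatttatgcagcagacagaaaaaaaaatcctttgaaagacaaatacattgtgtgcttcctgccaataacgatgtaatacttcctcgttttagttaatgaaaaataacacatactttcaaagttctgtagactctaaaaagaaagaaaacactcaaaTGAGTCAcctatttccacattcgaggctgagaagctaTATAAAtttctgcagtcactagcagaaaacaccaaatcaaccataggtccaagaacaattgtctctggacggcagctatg
PLAUR, chr19:43670120-43670419, minus strand: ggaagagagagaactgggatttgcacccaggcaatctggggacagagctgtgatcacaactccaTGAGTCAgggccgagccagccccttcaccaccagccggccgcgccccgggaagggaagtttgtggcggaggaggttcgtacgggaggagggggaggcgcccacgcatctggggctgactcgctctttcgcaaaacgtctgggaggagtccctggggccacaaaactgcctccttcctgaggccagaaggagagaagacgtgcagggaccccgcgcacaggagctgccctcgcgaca
SERPINE2, chr2:224031429-224031728, minus strand: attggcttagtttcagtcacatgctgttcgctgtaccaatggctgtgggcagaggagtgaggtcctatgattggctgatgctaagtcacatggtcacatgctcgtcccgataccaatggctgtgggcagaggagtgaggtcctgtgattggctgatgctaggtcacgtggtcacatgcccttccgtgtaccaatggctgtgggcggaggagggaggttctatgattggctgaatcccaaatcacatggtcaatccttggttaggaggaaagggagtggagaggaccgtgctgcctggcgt
SERPINE2, chr2:224038591-224038890, minus strand: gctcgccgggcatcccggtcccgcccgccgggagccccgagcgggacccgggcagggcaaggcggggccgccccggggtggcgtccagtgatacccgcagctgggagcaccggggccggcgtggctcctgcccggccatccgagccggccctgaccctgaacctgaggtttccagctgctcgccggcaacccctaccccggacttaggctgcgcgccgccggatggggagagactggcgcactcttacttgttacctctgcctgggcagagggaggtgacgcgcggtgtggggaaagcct

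MMP10 and MMP7 held TGANTCA at the same place, with its first letter 67 bases before the start. The letters there were TGAATCA in MMP10 and TGAGTCA in MMP7. TATAAA followed at 31 bases in MMP10 and 30 bases in MMP7. PLAUR held TGANTCA 186 bases before its start. Neither SERPINE2 window held TGANTCA or, on its own strand, TATAAA. Among all 35116 promoter windows 7.71% held TGANTCA, and 5 of the 25 windows of members did. These were MMP7 and PLAUR with TGAGTCA, and MMP10, SERPINB5 and SERPINB2 with TGAATCA. SERPINB2 is counted here although it had no probe set named. TATAAA on either strand was in 11.5% of all windows and in 4 of 25 windows of members. A match is a string of letters and not a measured binding site.

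Differences were read as the log2 intensity of the PTHLH array minus that of the empty vector array, with each gene represented by its brightest probe set. On the PTHLH array 4 of the 38 measured members were at least 1.5-fold lower (a log2 difference of 0.58 in size), namely PLAT, SERPINE2, TIMP2 and MMP9, and 0 were at least 1.5-fold higher. Among all genes 3.52% were at least 1.5-fold lower and 1.97% at least 1.5-fold higher. The median log2 difference was -0.09 over the members and 0 over all genes. A log2 difference below 0 was found in 26 members (68.4%) and in 47.0% of all genes. Of the 33 members that exceeded the median of either array, 25 were below 0 (75.8%), against 48.8% of the 13564 such genes. The members were chosen with earlier results of these data known, so these shares describe the list and are no independent check. With 1 array per condition no test was possible and no difference has a replicate check. The arrays measured whole cultures, so fewer cells that express a gene and less of its RNA per cell cannot be told apart.

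Error could be gauged only from how far the 2 brightest probe sets of a gene differed. This gave an SD of 0.22 for 1 log2 difference over the 26 members with at least 2 probe sets, and of 0.23 over all 10523 such genes. It covers differences between probes and not between cultures. Intensities of different probe sets depend on the probes, so genes are not ranked by level here. The members had 92 probe sets, of which 49 were lower, 35 higher and 8 identical on both arrays. Of the 56 above both medians, 40 (71.4%) were lower on the PTHLH array, against 46.8% of the 21971 such probe sets of all genes.

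**Figure D1:**
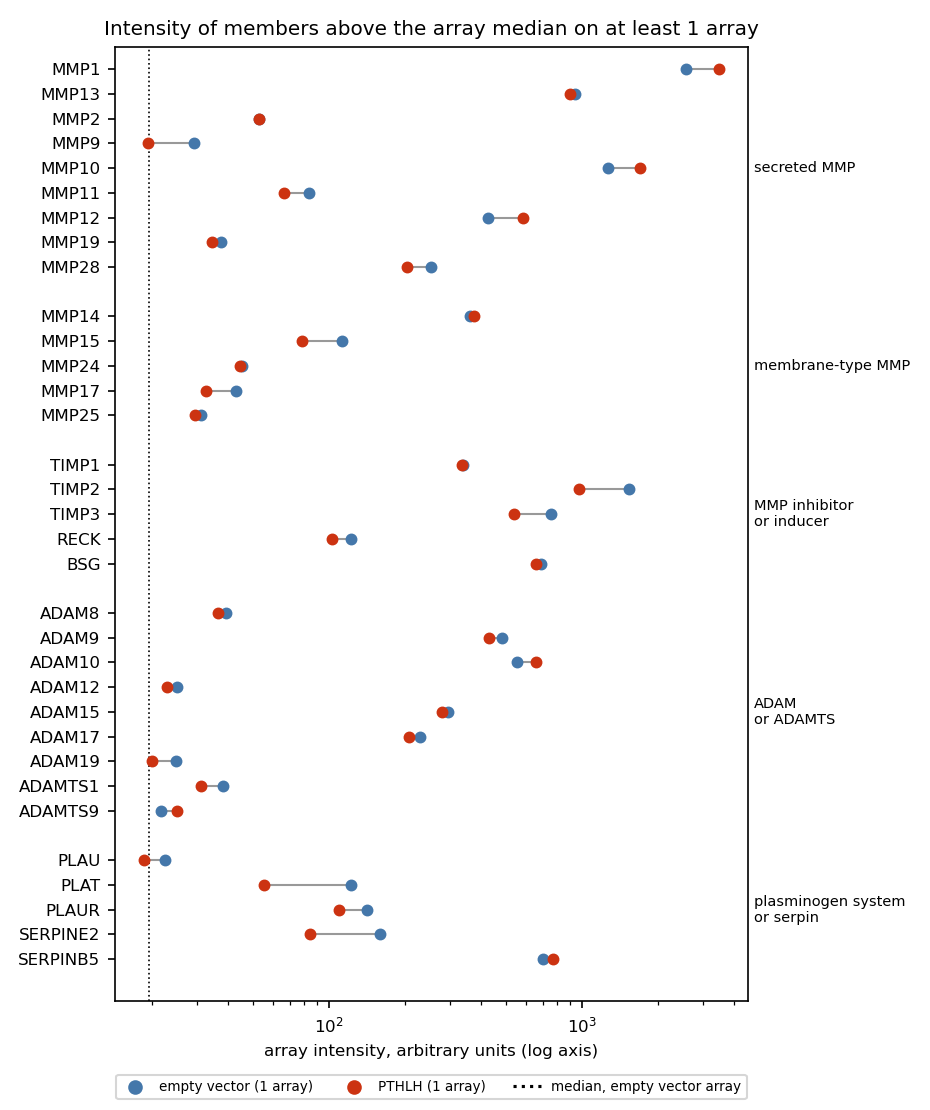
Array intensity (arbitrary units, log axis) of the 33 members that exceeded the median of either array, grouped by role. Blue marks the empty vector, red marks PTHLH (a single array for each), and the dotted line is the empty vector array's median. PLAT goes from 122 to 55.5 and SERPINE2 from 158 to 83.9, while MMP1 goes from 2579 to 3476.

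The plasminogen system held the 2 members with the lowest log2 differences. PLAT, tissue plasminogen activator, had an intensity of 122 with the empty vector and 55.5 with PTHLH, a log2 difference of -1.14. That is 0.453 of its empty vector intensity, at rank 84 from the lowest among all genes, and it rests on the 1 probe set PLAT has. PLAT was the only member past 2-fold, where 0.733% of all genes were at least 2-fold lower.

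SERPINE2 encodes protease nexin-1, a serpin that inhibits thrombin, urokinase and other serine proteases. Its brightest probe set had an intensity of 158 with the empty vector and 83.9 with PTHLH, a log2 difference of -0.92, at rank 196 from the lowest. Its other probe set, below both medians at 6.30 and 6.55, had a log2 difference of 0.058.

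PLAUR, the receptor that holds urokinase at the cell surface, went from 142 to 110 by its brightest probe set, a log2 difference of -0.37. Its 3 probe sets were above both medians and lay between -0.44 and -0.29, so each was lower on the PTHLH array and none reached 1.5-fold. PLAU, the gene of urokinase, was near the medians, with 22.5 with the empty vector and 18.5 with PTHLH (a log2 difference of -0.28), and its dimmer probe set had 0.14. SERPINB5, the maspin gene of epithelial cells, was at 698 and 771, a log2 difference of 0.14, and it was the 1 measured gene of this group with a value above 0. The median log2 difference of the 5 genes was -0.37.

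Of the 5 inhibitors of metalloproteases, TIMP2 was at least 1.5-fold lower on the PTHLH array, TIMP3 and RECK were lower by less, and TIMP1 was nearly equal on both arrays. TIMP2, which blocks MMP2 and also helps MMP14 to activate it, had 1537 with the empty vector and 976 with PTHLH, a log2 difference of -0.66. Its other probe sets went from 660 to 424 (-0.64) and from 88.9 to 64.1 (-0.47), so all 3 were lower on the PTHLH array and 2 were at least 1.5-fold lower.

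TIMP3, the inhibitor that stays bound to the matrix and also blocks ADAM17, went from 753 to 539, a log2 difference of -0.48. Its other 3 probe sets lay between -0.32 and -0.31. All 4 were therefore lower on the PTHLH array, each by less than 1.5-fold. TIMP1 had 338 and 336, a log2 difference of -0.01, and TIMP4 was below both medians at 15.5 and 16.8.

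RECK, an inhibitor anchored in the cell membrane, went from 122 to 102 by its brightest probe set, a log2 difference of -0.26. Its second brightest went from 47.7 to 29.6 (-0.69), and the other 3 lay between -0.33 and 0.16. RECK thus passed 1.5-fold by 1 probe set of 5, which was not its brightest. BSG, also called CD147 or EMMPRIN, a membrane protein known to induce metalloproteases in neighbouring cells, had 686 and 660, a log2 difference of -0.06. TIMP2, TIMP3 and SERPINE2 are also expressed by fibroblasts. Of the 8 fibroblast markers 5 were higher and 3 lower on the PTHLH array, with a median log2 difference of 0.18. The 4 above both medians had a median log2 difference of -0.24, with 3 lower and 1 higher. COL1A1 (-0.56), THY1 (-0.35) and DCN (-0.12) were the lower ones, and FAP, below both medians at 8.82 and 13.4, was the 1 at least 1.5-fold different. The summed intensity of the list, 2560 with the empty vector and 1780 with PTHLH, is nearly all that of the COL1A1 probe set. The cultures were of an established carcinoma line, and the part of fibroblast genes in the inhibitor values was not tested.

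The secreted metalloproteases were split. MMP9, a gelatinase that cuts collagen of the basement membrane, had 29.4 with the empty vector and 19.2 with PTHLH, a log2 difference of -0.61. Its only probe set was thus just past 1.5-fold and ended below the median of the PTHLH array. The nearest members within 1.5-fold were MMP15 (-0.52) and TIMP3 (-0.48). The other gelatinase, MMP2, had the same intensity of 52.8 on both arrays, and each of its 3 probe sets was identical between them. Identical values were deposited for 6.16% of all probe sets.

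The highest log2 differences among all members belonged to 3 secreted metalloproteases, and none of these reached 1.5-fold. MMP12, an elastase best known from macrophages, had 424 with the empty vector and 583 with PTHLH, 1.38-fold higher. MMP1, the interstitial collagenase, had 2579 and 3476 (1.35-fold), and MMP10, stromelysin-2, had 1265 and 1694 (1.34-fold). Their log2 differences of 0.46, 0.43 and 0.42 were at ranks 885, 1044 and 1101 from the highest among all genes, and each rests on 1 probe set.

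These 3 genes are neighbours in a cluster of 9 metalloprotease genes on chromosome 11, in the order MMP7, MMP20, MMP27, MMP8, MMP10, MMP1, MMP3, MMP12 and MMP13. The cluster was looked at after the values had been seen. Only MMP10, MMP1, MMP12 and MMP13 were above the array medians. MMP13, a collagenase of cartilage and of squamous carcinoma, had 942 and 897, a log2 difference of -0.07, so it did not share the higher values of the other 3. MMP3, stromelysin-1, lies between MMP1 and MMP12 and was below both medians at 7.94 and 7.75. MMP7, matrilysin, was below them at 8.73 and 9.34, with the same TGANTCA position as MMP10 in the sequences above. MMP20, enamelysin, was at 5.28 and 5.64 and held TGANTCA 112 bases before its start. MMP8 and MMP27, also below both medians, held none. No sequence was given for MMP1, MMP3, MMP12 and MMP13, so MMP10 was the 1 cluster gene above the medians whose promoter could be searched.

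The serpin genes of clade B on chromosome 18 form a like cluster of 10, of which 9 were measured. SERPINB5 at one end had a log2 difference of 0.14. SERPINB13, a serpin of stratified epithelium, went from 487 to 679 (0.48), and SERPINB3, the squamous cell carcinoma antigen, from 135 to 106 (-0.35). SERPINB8 at the other end went from 76.4 to 66.8 (-0.19), and the other 5 measured were below both medians. None of the 9 reached 1.5-fold in either direction.

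The remaining secreted enzymes were lower by less than 1.5-fold. MMP11, stromelysin-3, had 83.7 with the empty vector and 66.6 with PTHLH (a log2 difference of -0.33), and its other 3 probe sets lay between -0.29 and 0.09. MMP28, epilysin of keratinocytes, went from 253 to 203 (-0.32), and its 5 probe sets were all above both medians and all lower, between -0.32 and -0.03. MMP19 had 37.4 and 34.5 (-0.12), while its second probe set, also above both medians, had 0.28, so its direction depended on the probe set.

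Of the 6 membrane-type metalloproteases none reached 1.5-fold. MMP14, which activates MMP2 and cuts collagen at the cell surface, had 361 and 374, a log2 difference of 0.05, with its other 3 probe sets between -0.02 and 0.23. MMP15, its close relative, went from 112 to 78.4 (-0.52), and its second probe set was also lower (-0.31). MMP17, held by a lipid anchor, went from 42.8 to 32.5 (-0.39). MMP24 (45.5 and 44.5) and MMP25 (31.2 and 29.4) had log2 differences of -0.03 and -0.09, and MMP16 was below both medians at 11.9 and 13.1. Of the genes known to act together in MMP2 activation, TIMP2 was at least 1.5-fold lower. MMP14 was near 0 by its brightest probe set and up to 0.23 by its others. MMP2 was deposited with identical values on both arrays.

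Of the 5 role groups the ADAM and ADAMTS proteases had the narrowest range of log2 differences, from -0.32 to 0.29, and none of the 10 reached 1.5-fold. ADAM10, a sheddase that cuts Notch receptors and E-cadherin, went from 556 to 660, a log2 difference of 0.25, and its 3 probe sets were all higher, between 0.25 and 0.50. ADAM17, which releases TNF and ligands of the EGF receptor, went from 228 to 207 (-0.14), and its 3 probe sets were all lower, between -0.36 and -0.14. ADAM10 and ADAM17 were thus on opposite sides of 0 by every probe set. By the brightest their sizes were near the SD between probe sets, and the largest, 0.50 for ADAM10 and -0.36 for ADAM17, came from probe sets below both medians.

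The other ADAM genes were below 0 by their brightest probe set. ADAM9 had 482 and 428 (-0.17), ADAM15 had 295 and 281 (-0.07), and ADAM8 had 39.1 and 36.6 (-0.10). The second probe set of ADAM8, also above both medians, went from 30.0 to 34.9, a log2 difference of 0.22 in the opposite direction. ADAM12 had 25.0 and 22.9 (-0.12), and ADAM19, with 24.96 and 20.004 (-0.32), was close to the medians. The second probe sets of ADAM12 (0.14), ADAM19 (0.17) and ADAMTS1 (0.080) were also opposite in sign to the brightest. Among the aggrecan-cutting family ADAMTS1 went from 38.0 to 31.2 (-0.29), ADAMTS9 from 21.7 to 25.0 (0.20), and ADAMTS5 was below both medians at 4.96 and 6.07.

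Other genes of the same systems, came from 4 lists beside the members. Of their 54 measured genes 2 were at least 1.5-fold lower (3.7%, against 3.52% of all genes) and 0 higher (1.97% of all genes). Of 14 measured plasminogen system genes none was at least 1.5-fold different, and the median log2 difference was 0.02. PLGRKT, a plasminogen receptor, went from 31.5 to 21.9 (-0.53), whereas ANXA2 (7714 and 8583) and S100A10 (10078 and 10626), which together bind plasminogen and PLAT at the cell surface, had log2 differences of 0.15 and 0.08.

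Among 20 measured ADAM genes and partners, ADAM11 was at least 1.5-fold lower, from 49.4 to 31.5 (-0.65), but its second probe set, also above both medians, had 0.22. The iRhom genes RHBDF1 and RHBDF2, needed for ADAM17 to mature, had log2 differences of 0.12 and -0.06. Of 15 other ADAMTS genes, ADAMTS15 was lower, from 23.7 to 12.9 (-0.88), while its second probe set, below both medians, had 0.17. The 5 other matrix metalloproteases measured, among them MMP8, MMP20 and MMP27, were all below both medians, with a median log2 difference of 0.09.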

How the data were processed

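RNA of 1 empty vector and 1 PTHLH culture of Ca9-22 cells was measured on Affymetrix U133 arrays, 1 per culture. The authors deposited linear intensities that they had made from the scans. How they corrected background, normalized and summarised probes is not given in the sources used here, and the outer quartiles were nearly equal (7.70 and 77.9 for the empty vector, 7.74 and 76.3 for PTHLH).

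Intensities were turned to log2 and subtracted. Names came from a platform annotation and were brought to the symbols of GRCh38.p14 by gene identifier. Of 54675 probe sets, 41097 had 1 symbol and were used, 1801 had several and 11777 stayed unnamed. A gene's value is that of its probe set with the highest mean log2 intensity. Calls used the study's 1.5-fold threshold. Without replicates there is no test, and precision is limited by the number of arrays. The script was tested on simulated data with planted changes, which does not test the calls of these arrays. Members and lists were chosen with earlier results of these data known. Every member is accounted for, and all those above an array median are given with both values. In the related lists the genes at least 1.5-fold different and above an array median are named, and the others named there were picked for their role. The TATAAA search and the chromosome clusters were added after seeing the data. A planned search of protein motifs was not run, as no protein sequences were used here.

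The alternatives were quantile normalization, centring on the median of bright probe sets, the median, the largest change or the second brightest over a gene's probe sets, only genes past an array median, a floor at percentile 40, no probe sets of suffix x or s, and a 2-fold threshold. Python 3.11.15, pandas 2.3.3, numpy 2.4.6 and matplotlib 3.10.9 were used.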

Additional observations from a re-analysis of the deposited data

How the results depend on the processing

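The count of members at least 1.5-fold higher was 0 under all 9 alternatives, and at a 2-fold threshold no other count was possible. Among all genes 1.25% were at least 1.5-fold higher by the median over probe sets and 3.48% by the largest change. The count at least 1.5-fold lower was 4 in the report, 1 at a 2-fold threshold (PLAT) and 2 of 26 by the second brightest probe set (TIMP2 and RECK, with PLAT and MMP9 having no second one). SERPINE2 had a log2 difference of 0.058 by that probe set, against -0.92, and of -0.43 by the median of its 2. With no probe sets of suffix x or s, 28 members were left, PLAT and MMP9 not among them, and the lower ones were TIMP2, SERPINE2 and RECK. By the largest change 5 were lower, with RECK added, and by the median over probe sets 3, without SERPINE2. Of all genes, 2.4% were at least 1.5-fold lower by the second brightest probe set, 3.41% with no probe sets of suffix x or s, 4.98% by the largest change and 2.25% by the median. Quantile normalization and the floor left PLAT, SERPINE2, TIMP2 and MMP9 as the lower ones. Centring had a shift of 0 and the filter on dim genes alters no value, so neither could change these calls. The other 6 settings that recompute values gave 206 values of single members, of which 98 did not change at all, 86 changed by less than the SD between probe sets and 22 by more. The sign changed in 20 of them, over 11 members, of which SERPINE2 was the only one past 1.5-fold. By the second brightest probe set these included PLAU (0.14), MMP19 (0.28), ADAM19 (0.17) and ADAM8 (0.22), and by the largest change ADAMTS5 (-0.39). Dim probe sets near or below the medians, such as those of MMP9 and PLAU, limit what their differences can show.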

Other observations

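Proteases that act inside lysosomes or activate other proteases were in 2 further lists. Of their 29 measured genes 2 were at least 1.5-fold lower (6.9%, against 3.52% of all genes) and 1 higher (3.45%, against 1.97%), and counts this small do not set the lists apart. Of 15 cathepsins, cystatins and legumain, LGMN, the gene of legumain, which cuts after asparagine, was at least 1.5-fold lower, from 391 to 253 by its only probe set (a log2 difference of -0.63). CTSL, cathepsin L, went from 880 to 600 (-0.55) and CTSV, its close relative in epithelium, from 232 to 175 (-0.40). CTSB, cathepsin B, had 2068 and 1916 (-0.11), and the inhibitors CSTA and CSTB had log2 differences of 0.02 and 0.13. The median of the list was -0.03.

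Of 14 proprotein convertases and membrane serine proteases with their inhibitors, 1 was at least 1.5-fold higher and 1 lower, with a median of 0.02. TMPRSS4, a membrane serine protease, went from 458 to 270 by its only probe set (-0.76). PI3, elafin, an inhibitor of neutrophil elastase, went from 17.6 to 30.0 (0.77), crossing the array medians, while its second probe set, below both, had 0.07. FURIN, which cuts the precursors of MMP14 and of ADAM proteases, had 128 and 129, a log2 difference of 0.01. ST14, matriptase, went from 422 to 348 (-0.28), and its inhibitor SPINT1 had 1037 and 935 (-0.15).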
